A study of Caenorhabditis elegans with 2 samples.

Results

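Chromosome X of Caenorhabditis elegans carried 420 of the 2285 reproducible binding peaks of NHR-77 in the ce11 genome build, and 1865 lay on the 5 autosomes. The members are all peaks on X in the set that the authors made reproducible with the irreproducible discovery rate (IDR), a measure of agreement between replicates, and each peak was placed by its summit. The data are chromatin immunoprecipitation with sequencing (ChIP-seq) of the nuclear hormone receptor NHR-77, tagged with eGFP, a green fluorescent protein. The labels name nhr-77 as the antibody target. The material was whole L1 larvae, the first larval stage, of mixed sex and unstated age. All larvae were of strain OP353, genotype unc-119(tm4063) III; wgIs353, where wgIs353 is the inserted tagged nhr-77. The 2 biological replicates belong to 1 group. With no other condition to compare, peaks on X are set here against peaks on the other chromosomes, with values from each replicate beside the main shares. A tagged copy read in whole animals does not show in which cells it was bound, and the labels do not give the promoter that drives it.

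NHR-77 is one of the many nuclear hormone receptors of nematodes, transcription factors with a zinc-finger DNA-binding domain, and its own targets are little described. Chromosome X differs from the autosomes of this worm in its gene content and in its regulation. Hermaphrodites have a pair of X chromosomes and males have a single X, and the dosage compensation complex binds along both X chromosomes of hermaphrodites and lowers their transcription. The complex is first recruited at separate sites on X, called rex sites (recruitment elements on X), which share a short motif whose core reads GCGCAGGG, and SDC-2 is the protein that brings it there. X is also rich in tRNA genes, which RNA polymerase III transcribes from promoters inside the gene that include a B box.

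The strongest X sites outside promoters are shown first, because a short word recurred in them. They are 200-base windows centred on the summit, from the plus strand of WBcel235 (ce11; RefSeq sequence). Capitals mark GCGCAGGG or the related word GCGAAGGG on either strand, the reverse complements being CCCTGCGC and CCCTTCGC. The 6 strongest X peaks outside protein-coding promoters whose summits were not in a UTR were the following, named by rank among X peaks and nearest gene.
X rank 1, W02H3.3, chrX:11094094-11094293: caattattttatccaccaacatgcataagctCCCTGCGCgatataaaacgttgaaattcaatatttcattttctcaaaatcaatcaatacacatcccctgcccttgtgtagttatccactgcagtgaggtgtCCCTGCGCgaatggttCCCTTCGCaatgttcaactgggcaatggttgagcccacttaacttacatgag
X rank 4, ZK899.6, chrX:9465770-9465969: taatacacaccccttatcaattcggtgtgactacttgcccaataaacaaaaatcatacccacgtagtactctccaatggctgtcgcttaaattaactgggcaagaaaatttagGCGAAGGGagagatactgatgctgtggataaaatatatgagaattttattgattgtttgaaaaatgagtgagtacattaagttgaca
X rank 5, K02D3.1, chrX:13700767-13700966: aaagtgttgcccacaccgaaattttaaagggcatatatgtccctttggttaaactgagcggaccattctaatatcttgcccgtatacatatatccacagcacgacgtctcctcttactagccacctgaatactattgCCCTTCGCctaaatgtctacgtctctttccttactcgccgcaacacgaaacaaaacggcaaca
X rank 7, F20B6.9, chrX:4209178-4209377: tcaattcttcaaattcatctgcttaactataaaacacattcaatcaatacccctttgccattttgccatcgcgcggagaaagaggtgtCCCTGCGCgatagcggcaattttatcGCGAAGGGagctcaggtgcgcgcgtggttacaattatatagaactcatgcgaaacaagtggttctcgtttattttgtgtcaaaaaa
X rank 8, gtr-1, chrX:806601-806800: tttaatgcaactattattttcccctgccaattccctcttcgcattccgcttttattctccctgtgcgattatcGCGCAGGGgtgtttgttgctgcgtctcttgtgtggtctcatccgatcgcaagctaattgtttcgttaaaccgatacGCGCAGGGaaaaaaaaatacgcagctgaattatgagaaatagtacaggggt
X rank 9, F55G7.5, chrX:11937435-11937634: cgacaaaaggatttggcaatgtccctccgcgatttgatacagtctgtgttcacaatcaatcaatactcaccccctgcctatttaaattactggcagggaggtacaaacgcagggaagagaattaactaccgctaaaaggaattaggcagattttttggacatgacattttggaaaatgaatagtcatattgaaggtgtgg

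Of these 6 windows, those of ranks 1, 7 and 8 held GCGCAGGG, those of ranks 4 and 5 held GCGAAGGG alone, and that of rank 9 held neither word. For contrast, the strongest X peak in a promoter, at -298 bp (upstream) from the 5' end of puf-9, which encodes a Pumilio-family RNA-binding protein, and the strongest X peak beside a tRNA gene are shown. The puf-9 window overlaps the annotated noncoding RNAs W06B11.7 and W06B11.9. In the tRNA window capitals mark GGTTCGA, letters found in many tRNA B boxes.
X rank 2, puf-9, chrX:5841194-5841393: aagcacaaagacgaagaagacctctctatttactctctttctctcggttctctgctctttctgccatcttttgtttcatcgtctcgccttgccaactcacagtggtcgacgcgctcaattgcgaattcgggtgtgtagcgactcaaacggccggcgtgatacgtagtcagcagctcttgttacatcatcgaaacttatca
X rank 40, tRNA gene WBGene00023110, chrX:3036037-3036236: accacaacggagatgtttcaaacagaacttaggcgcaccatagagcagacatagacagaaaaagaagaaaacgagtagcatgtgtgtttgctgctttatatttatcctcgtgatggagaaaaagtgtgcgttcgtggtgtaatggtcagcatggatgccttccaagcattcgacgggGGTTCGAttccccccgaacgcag

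X held about the share of peaks that its length would give, and a larger share of the strongest ones. It had 18.4% of the peaks (420 of 2285) and 17.7% of the length of the 6 chromosomes, or 23.7 peaks per Mb against 22.6 on the autosomes together, which ranged from 15.7 to 27.6. Among the 2285 strongest peaks of each replicate list, X held 432 (18.9%) in replicate 1 and 410 (17.9%) in replicate 2. Signal is the authors' value for each peak and serves only to describe and rank peaks within a list. The median signal was 91.4 on X (58.8 to 622) and 92.8 on the autosomes (58.7 to 809), and the median X peak stood at the 48.8th percentile of all peaks.

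At the top of the ranking X was more frequent. It held 8 of the 25 strongest peaks (32.0%), 16 of the 50 strongest (32.0%) and 27 of the 100 strongest (27.0%, exact 95% interval 18.6 to 36.8%). Further down the share came close to that of all peaks, with 53 of the 250 strongest (21.2%) and 94 of the 500 strongest (18.8%). Replicate 1 had 29 X peaks among its 100 strongest and replicate 2 had 27. Peaks share libraries and chromatin, so these intervals cover counting error only and no p-value was computed over peaks.

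**Figure D1:**
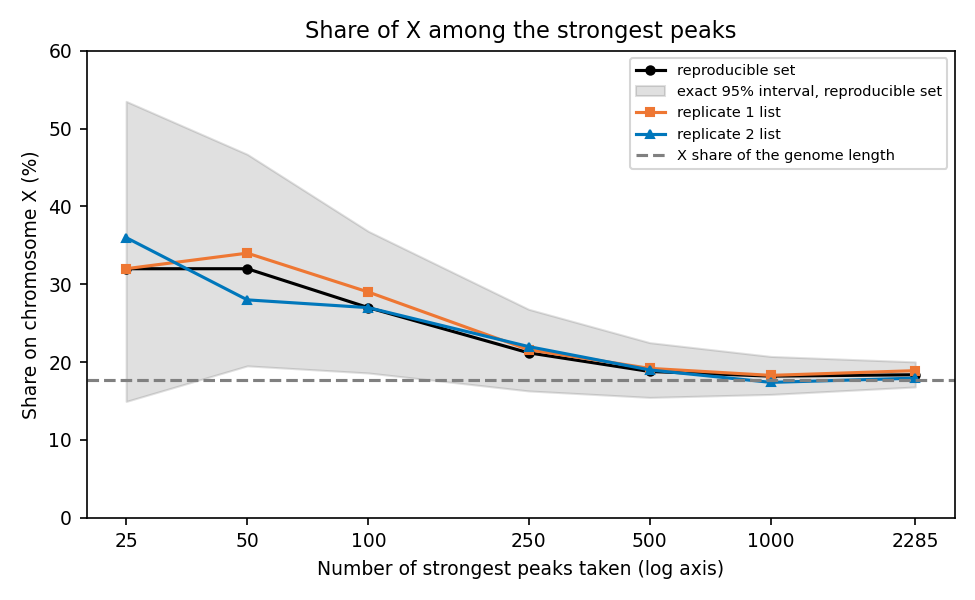
Share of peaks on chromosome X (vertical axis, %) among the strongest peaks (horizontal axis, number taken, log axis) for the reproducible set (black, grey band: exact 95% interval) and each replicate's own list. The dashed line is the X share of genome length, 17.7%. In all 3 lists X holds 27 to 29 of the 100 strongest peaks and 17.9 to 18.9% of 2285 peaks.

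Peaks were found along all of X. Cut into 10 parts of equal length, X held, from the left end, 29, 34, 39, 48, 42, 33, 44, 60, 50 and 41 peaks. The 8th part was the fullest with 60 peaks, and it was also the fullest in replicate 1 (62) and in replicate 2 (60). Cut into 3 equal parts, X had 116 peaks at the left, 138 in the centre and 166 at the right. The centre thus held 32.9% of X peaks (32.2% in replicate 1 and 31.2% in replicate 2), against 38.5 to 48.9% on each autosome, where the central part is known as the gene-rich cluster between 2 arms.

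Neighbouring X summits were 24231 bp apart at the median (quartiles 7682 and 55539 bp), against 23683 bp on the autosomes. The closest pair lay 201 bp apart and the widest gap was 314255 bp, and 18 spacings (4.30%) were under 1 kb, against 4.35% on the autosomes. Spacing on X thus lay within the autosomal range of 17841 to 33801.5 bp. The interval chrX:8036232-8036667 is listed with a pair of summits, of signal 332 and 103, and its value in each replicate list (172 and 154) is therefore shared by both. In all, 14 X peaks took their replicate values from a replicate peak that another X peak also overlapped.

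**Figure D2:**
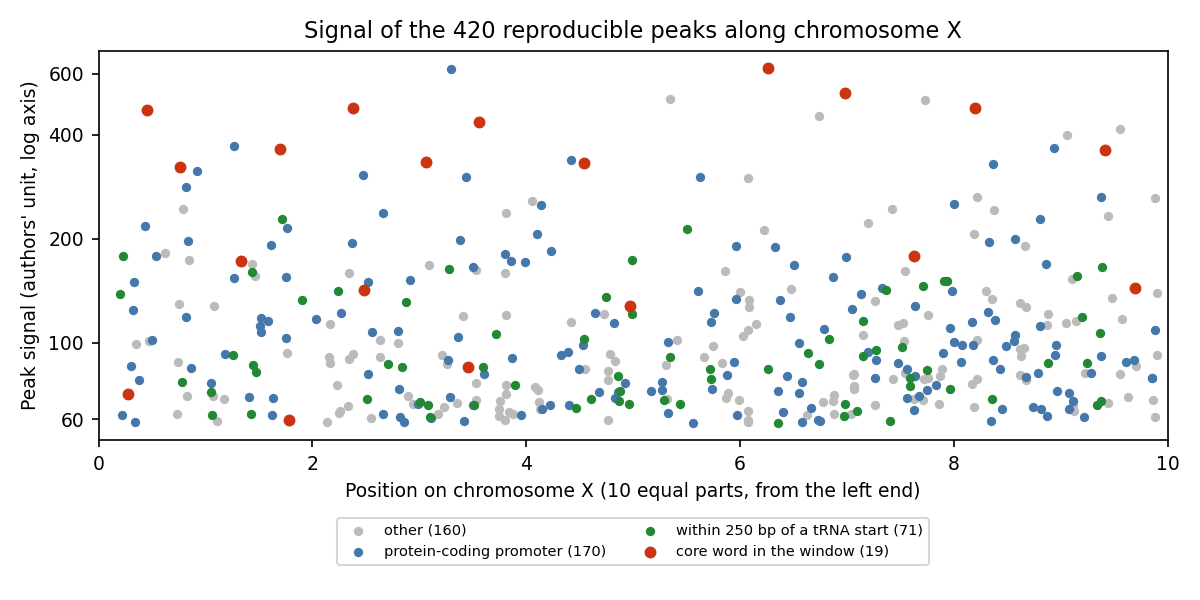
Signal of each of the 420 X peaks (vertical axis, authors' unit, log axis) against position (horizontal axis, X in 10 equal parts from the left end). Colours mark peaks with GCGCAGGG in the 200-bp window (19), other peaks within 250 bp of a tRNA start (71), other protein-coding promoter peaks (170) and the remaining 160. Most peaks lie below a signal of 200, and peaks with the word make up 11 of the 25 highest points.

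X peaks lay less often in protein-coding promoters than autosomal peaks did. A promoter is taken here as 1000 bp upstream to 250 bp downstream of an annotated 5' end. Of the 420 X summits, 186 (44.3%, 39.5 to 49.2%) were in such a window, against 1092 of 1865 on the autosomes (58.6%, 56.3 to 60.8%). The shares were 44.4% against 58.3% in replicate 1, and 41.2% against 56.1% in replicate 2. X also has fewer protein-coding genes, 154 per Mb against 188 to 239 on each autosome, and its promoter windows cover 18.3% of its bases, against 23.1% on the autosomes. Relative to those bases promoters were 2.42-fold over-represented on X and 2.53-fold on the autosomes, where single chromosomes ranged from 2.32 to 2.90. The lower promoter share on X thus came with a smaller promoter area, and per base of promoter X lay within the autosomal range.

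The same 186 summits marked 199 of the 2731 protein-coding genes of X (7.29%, 6.34 to 8.33%), against 8.8% of genes on the other chromosomes and 8.6% of all genes. Replicate 1 marked 208 X genes and replicate 2 marked 181. Of the 186 peaks, 168 lay in the window of 1 gene and 18 in the windows of several, so some genes share a peak.

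Distances to genes were longer on X. Without regard to direction, the median distance to the nearest protein-coding 5' end was 1040.5 bp on X and 434 bp on the autosomes. With direction, the median summit stood at -230 bp on X and at -174 bp on the autosomes. Negative values are upstream, so upstream and downstream distances offset each other in these signed medians. Within 500 bp upstream lay 139 X peaks (33.1%), against 859 autosomal peaks (46.1%). Summits over 2000 bp away from the nearest start numbered 145 on X (34.5%) and 456 on the autosomes (24.5%), while beyond 5000 bp the shares were 9.29% on X and 8.95% on the autosomes. Summits in no annotated gene and in no promoter window, called distal here, numbered 113 on X (26.9%, 22.7 to 31.4%) and 312 on the autosomes (16.7%, 15.1 to 18.5%). The distal share was 27.3% against 16.6% in replicate 1, and 26.6% against 17.5% in replicate 2. The highest autosome had 19.2% in the reproducible set and 22.4% in replicate 2. The share of bases that are distal was not computed, so no excess per base is read from these shares. X has more intergenic sequence, 41.0% of its bases against 31.6% on the autosomes, and a smaller promoter area, 18.3% against 23.1%.

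By annotated feature, 262 X summits (62.4%) were intergenic, close to 62.6% on the autosomes. The shares were 63.2% on X and 62.0% on the autosomes in replicate 1, and 58.0% and 61.2% in replicate 2. Intergenic sequence makes up 41.0% of X but 31.6% of the autosomes, so intergenic summits were 1.52-fold over-represented on X and 1.98-fold on the autosomes, each of which was above X (1.71 to 2.38). Introns held 90 X summits (21.4%, against 23.2%). Coding exons, which make up 20.0% of X bases, held 1 summit, and 3' UTRs held 1. Noncoding RNA genes held 54 X summits (12.9%, 9.81 to 16.4%), against 7.56% on the autosomes (5.87 to 9.76% on each), and 27 of these 54 were in tRNA genes, against 24 of 141 on the autosomes. The noncoding share was 12.7% on X against 7.88% on the autosomes in replicate 1, and 14.1% against 7.15% in replicate 2.

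**Figure D3:**
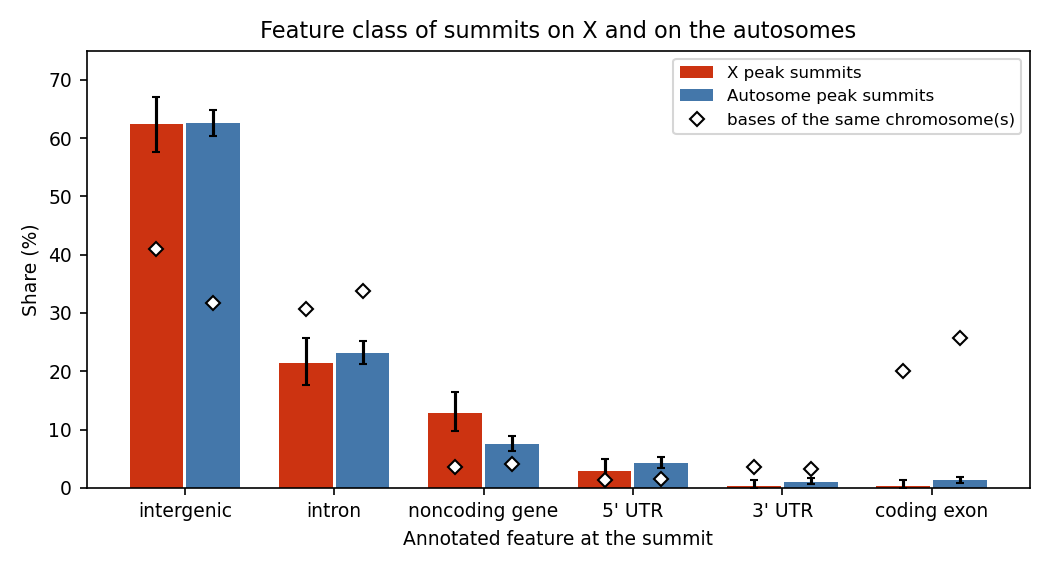
Share of summits (vertical axis, %) by annotated feature (horizontal axis) for X (red, 420 peaks) and the autosomes (blue, 1865 peaks), with exact 95% intervals, and the share of bases of the same chromosomes as diamonds. Intergenic bars are alike (62.4 and 62.6%) although intergenic bases differ (41.0 and 31.6%), and the noncoding gene bar is higher on X (12.9 against 7.56%).

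Peaks on X and on the autosomes had been kept by IDR for agreement between the replicates. Their overlap with both replicate lists, and the agreement given below, are therefore largely set by that choice. All 420 overlapped a peak in each relaxed replicate list, against 1859 of 1865 autosomal peaks, but these relaxed lists include background. With only the 2285 strongest peaks of each replicate, 381 X peaks (90.7%) were met in replicate 1, 350 (83.3%) in replicate 2 and 312 (74.3%) in both, against 74.2% in both on the autosomes. The overlapping peaks had a median signal of 51.5 in replicate 1 (17.4 to 335) and 40.2 in replicate 2 (10.9 to 294). Across the 420 regions the replicate signals had a Spearman rho of 0.677, and across 1859 autosomal regions 0.691. With each replicate peak used once, rho was 0.664 over 413 X regions and 0.679 over 1822 autosomal regions. The summits of the replicates were 27 bp apart at the median on X and on the autosomes.

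**Figure D4:**
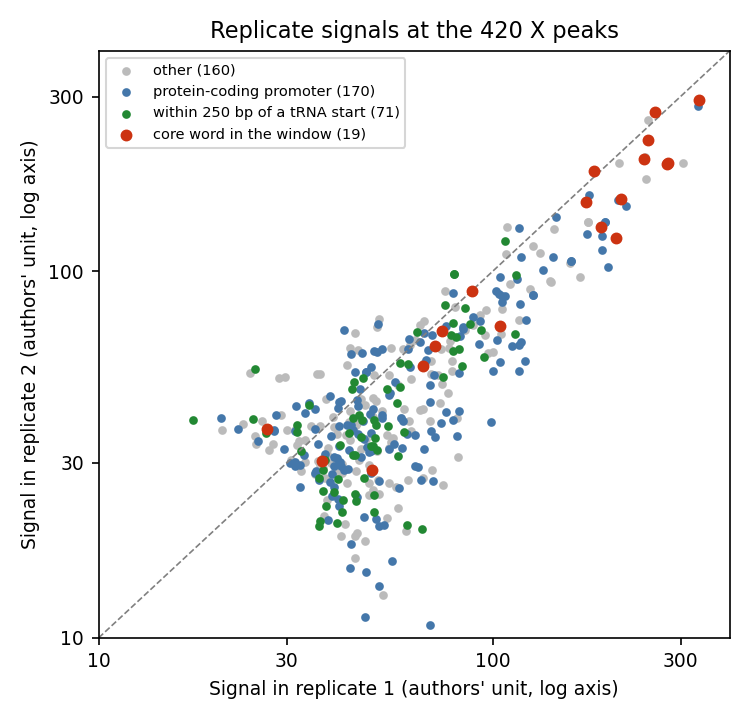
Signal of the 420 X peaks in replicate 1 (horizontal axis) and replicate 2 (vertical axis), both in the authors' unit on log axes, with the same colours as the plot along X and equality as a dashed line. Replicate 1 was higher at 329 peaks (78.3%), and at 77.2% of autosomal peaks, so this is not particular to X. The replicate lists may differ in scale, so the line is only a guide. The peaks with GCGCAGGG reach 335 in replicate 1 and 294 in replicate 2.

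The 25 strongest X peaks had signals from 302 to 622 and ranked no lower than 80 in replicate 1 and 164 in replicate 2. Of them 14 lay outside protein-coding promoters, against 4 of the 25 strongest autosomal peaks. Of all peaks, 55.7% on X and 41.4% on the autosomes lay outside promoters. The 14 of 25 on X were thus about the share of all X peaks, while the 4 of 25 were below the autosomal share. The cuts also differ, because the 25 strongest autosomal peaks had signals down to 398 only. The strongest of all on X, chrX:11093995-11094360, had a signal of 622, with 335 in replicate 1 and 294 in replicate 2. It lay 3992 bp downstream of the 5' end of W02H3.3. The peak at chrX:12362977-12363323 (527; 259 and 272 in the replicates) had its summit in an annotated 3' UTR near F19H6.5. The peaks near ZK899.6 (508; 248 and 259), K02D3.1 (504; 304 and 198), F20B6.9 (478; 249 and 229) and gtr-1 (471; 278 and 197) were all intergenic. Each of these 6 peaks stood among the 27 strongest in both replicates.

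The other peaks outside promoters lay near F55G7.5 (452), cest-16 (435, in an intron), C30E1.4 (415), T27A8.7 (400.4), Y41G9A.17 (363, in an intron), F22H10.2 (362), C41A3.2 (333, in a coding exon) and xol-1 (332). The one near C30E1.4 was within 250 bp of the start of the noncoding RNA C30E1.9. The xol-1 peak stood at -4873 bp from that gene, the switch gene of sex determination, which is active in XO embryos, and within 250 bp of the noncoding RNA C18A11.13.

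The 11 promoter peaks among the 25 belonged to genes of several kinds. The highest was that of puf-9, with a signal of 619 and 333 and 282 in the replicates. Genes of protein synthesis and folding were rpl-11.2, a ribosomal protein of the large subunit (372, at -372 bp), eef-1A.2, a translation elongation factor (338, at -357 bp), and hsp-3, an Hsp70 chaperone of the endoplasmic reticulum (302, at -65 bp). The endocytosis genes epn-1, an epsin (330.0), and dpy-23, the mu subunit of the AP2 clathrin adaptor (306), also had peaks, at -400 and -300 bp. The insulin-like peptide gene ins-39 (323), nspc-17 (478), serp-1.1 (366), fbxb-58 (315) and ZC506.1 (302) made up the rest.

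The word GCGCAGGG was the sequence that most set X peaks apart once tRNA genes were left aside. It was in the 200-bp window of 19 X peaks (4.52%, 2.75 to 6.97%) and of 2 autosomal peaks (0.107%, 0.0130 to 0.387%), or 0.919% of all reproducible peaks. The counts were 17 of 432 on X against 2 of 1853 on the autosomes in replicate 1, and 17 of 410 against 2 of 1875 in replicate 2. In windows tiled over the whole chromosomes it was in 0.0869% on X and 0.0538% on the autosomes. Its density as a word was 4.57 copies per Mb on X and 2.82 on the autosomes. Outside promoters it was in 14 of 234 X peaks (5.98%) and in 0 of 773 autosomal peaks (exact upper limit 0.476%). Outside promoters, replicate 1 had it in 14 of 240 X peaks and 0 of 773 autosomal peaks, and replicate 2 in 13 of 241 and 1 of 823. A word match is a description of the letters and shows neither binding by dosage compensation proteins nor that NHR-77 touches this word.

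When all words of 8 letters were ranked by how far their share differed between X and autosomal peaks outside promoters and away from tRNA genes, GCGCAGGG came first, in 14 of 174 X peaks and 0 of 706. Overlapping words followed, CGCAGGGA in 14 against 1 and CGCGCAGG in 13 against 5. The fourth word, GCGAAGGG, was in 11 against 3. Over all peaks GCGAAGGG was in 13 X windows (3.10%) and in 6 autosomal windows (0.322%), and 6 of those 13 also held GCGCAGGG. Of the 14 strong X peaks outside promoters, 9 held GCGCAGGG and 11 held either word. GCGAAGGG was picked out after this ranking was seen.

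Not every copy of the word was in a peak. X has 81 copies, of which 24 (29.6%, 20.0 to 40.8%) lay inside reproducible peaks, which cover 0.872% of X. The autosomes have 233 copies, of which 6 (2.58%, 0.951 to 5.52%) lay inside reproducible peaks, which cover 0.827% of autosomal bases. The relaxed pooled list covers 5.41% of X bases and 4.88% of autosomal bases. Its peaks held 33 of the 81 copies on X (40.7%) and 20 of the 233 on the autosomes (8.58%). On X, 16 of 42 intergenic copies, 4 of 24 intronic copies and 2 of 10 copies in coding exons were inside reproducible peaks.

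The letters beside the word were read next. C before and A after it were chosen because they were the commonest neighbours of the copies in X peaks, so the X counts below describe that choice and support nothing. On X, a copy preceded by C and followed by A was inside a reproducible peak in 12 of 17 cases. X copies with other flanks were inside one in 12 of 64 cases. On the autosomes the counts were 0 of 21 with these flanks and 6 of 212 with others (2.83%). At so low a share 21 copies would give few or no calls, so nothing is read from the 0. In the relaxed lists copies with C before and A after were in peaks at 14 of 17 X sites in each replicate. On the autosomes they were at 3 of 21 sites in replicate 1 and 1 of 21 in replicate 2. Copies with other flanks were in peaks at 23 of 64 X sites and 28 of 212 autosomal sites in replicate 1. In replicate 2 these counts were 22 of 64 and 27 of 212. The relaxed lists cover 8.10% (replicate 1) and 9.62% (replicate 2) of X bases, and 7.53% and 8.65% of autosomal bases. The sites below show the word with 8 letters on each side, read on the strand that gives GCGCAGGG in capitals, for every copy in the 25 strongest X peaks whose window is not printed above, and for the 2 weakest peaks with the word whose summits were not in introns.
F19H6.5, signal 527, chrX:12363039-12363046: agttatagGCGCAGGGtcttgagg
nspc-17, signal 478, chrX:14525900-14525907: tgcctatcGCGCAGGGacagatgt
cest-16, signal 435, chrX:6296576-6296583: taggtatcGCGCAGGGaagattta
cest-16, other copy, chrX:6296548-6296555: tacatttgGCGCAGGGggtcacca
Y41G9A.17, signal 363, chrX:2997123-2997130: aatttatcGCGCAGGGaggaagta
F22H10.2, signal 362, chrX:16682172-16682179: aaaacatcGCGCAGGGaacatcaa
C41A3.2, signal 333, chrX:5429590-5429597: taaatttaGCGCAGGGaggacgcc
xol-1, signal 332, chrX:8036435-8036442: tttccatcGCGCAGGGaacccttc
xol-1, other copy, chrX:8036401-8036408: tttttatcGCGCAGGGacgtatgt
ins-39, signal 323, chrX:1345056-1345063: tgtcattcGCGCAGGGcagctgag
C15H9.9, signal 85.3, chrX:6129304-6129311: ctaattttGCGCAGGGtgtgcaaa
gcc-1, signal 59.7, chrX:3159726-3159733: taaacaacGCGCAGGGcgttcgag
Of the 23 copies in the 19 windows, 15 had C directly before the word, 15 had T at the place before that, and 17 had A directly after it.

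Peaks with the word were strong. Their median signal was 332 (59.7 to 622), against 89.8 (58.8 to 619) for the 401 other X peaks, and they made up 11 of the 25 strongest X peaks and 11 of the 100 strongest peaks on any chromosome. With all peaks holding the word taken out of the whole set, X held 16 of the 100 strongest peaks in place of 27. No autosomal peak with the word was among the 100 strongest, so this step could not raise the X count. The X peaks with the word had a median rank of 67 in replicate 1 and 83 in replicate 2. The 2 autosomal peaks with the word, near sma-2 on chromosome III and pqn-94 on chromosome V, had signals of 96.5 and 77.3.

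Copies were counted only within the 200-bp window, which by itself limits their distance from the summit. The distance from the centre of the word to the summit was 30.5 bp at the median (1.5 to 92.5 bp), 16 of 23 copies were within 50 bp and 8 within 25 bp. At these 19 peaks the replicate summits were 22 bp apart at the median. Of the 19 peaks 14 were outside promoters and 13 were intergenic, 4 held a pair of copies, and 13 lay left of the middle of X and 6 right of it. Neighbouring sites were 893038 bp apart at the median, and none were closer than 162402 bp.

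The other words did not set X apart in the same way. GAGAGAGA was in 52 X windows (12.4%) and 268 autosomal windows (14.4%), against 1.11% of all windows on X and 1.35% on the autosomes. Outside promoters it was in 14.5% of X peaks and 23.5% of autosomal peaks. The nuclear receptor half-site AGGTCA was in 31 X windows (7.38%) and 95 autosomal windows (5.09%), beside 5.25% of all windows on X and 4.69% on the autosomes. All words were searched on both strands.

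tRNA genes made up a larger part of the X sites. Of 612 annotated tRNA genes, 276 (45.1%) are on X. Within 250 bp of a tRNA start lay 72 X peaks (17.1%, 13.7 to 21.1%), against 90 autosomal peaks (4.83%), and the counts were 72 against 89 in replicate 1 and 58 against 72 in replicate 2. Per tRNA gene the chromosomes were alike: 86 of 276 on X (31.2%) and 103 of 336 on the autosomes (30.7%) had a summit from 1000 bp upstream to 250 bp downstream of the start, or 30.9% of all. Near-identical tRNA genes can share reads, and how the authors placed such reads is not given in the sources used here.

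The X peaks at tRNA genes were of middling signal. Their median was 85.1, the highest was 228, at WBGene00023110, and none was among the 25 strongest X peaks. Their summits lay 24 bp from the tRNA start at the median, and 43 of the 72 windows held GGTTCGA. Choosing peaks within 250 bp of a tRNA start by itself limits this distance and brings tRNA sequence into many windows. GGTTCGA was in 12 of the 348 other X peaks (3.45%) and in 1.32% of all windows on X. Outside promoters, 60 of 234 X peaks (25.6%, 20.2 to 31.7%) were near a tRNA start, against 67 of 773 (8.67%), while other noncoding starts were near 37 (15.8%), against 175 (22.6%).

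Genes of the X signal and of dosage compensation were looked up by name. The gene sdc-2, whose product targets the complex to X in hermaphrodites, had a peak at -391 bp from its start (168), and ceh-39, a homeobox gene that counts X dose as an X signal element, had one at -202 bp (76.5). In the reproducible set no promoter summit was found at sex-1, fox-1, xol-1 or sdc-1. The 2285 strongest peaks of replicate 1 also marked the promoter of sdc-1, and those of replicate 2 did not. The nearest summit stood at 8002 bp from the start of sex-1, a nuclear receptor, at -36108 bp from fox-1, an RNA-binding protein gene, at -4671 bp from xol-1 and at 22625 bp from sdc-1. The nearest to xol-1 is the weaker of the pair of summits listed for its interval.

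Protein-coding gene classes on X are set beside the 7.29% of all X protein-coding genes with a promoter summit. Autosomal counts of the same class are given beside each class, noncoding ones included. Nuclear hormone receptor genes had one in 4 of 23 cases (17.4%, 4.95 to 38.8%), namely nhr-48 (169), nhr-1 (109), nhr-32 (87.5) and nhr-255 (87.5), against 20 of 246 on the autosomes (8.13%). Of 74 X-linked miRNA genes 4 had one, against 14 of 187 on the autosomes. On X, 3 of the 4, cel-mir-54, cel-mir-55 and cel-mir-56, share a peak of signal 244, while cel-mir-47 had 66.4. Of 33 snoRNA genes 4 had one, T27A8.8 being highest (400.4), against 113 of 313 snoRNA genes on the autosomes. Ribosomal protein genes had one in 1 of 2 cases, against 63 of 76 on the autosomes (82.9%). The snRNA genes had one in 1 of 3 cases (M163.13, 75.8), against 23 of 126 (18.3%). Homeobox genes had one in 1 of 18 cases, against 2 of 45. Neuropeptide genes had one in 1 of 34 cases, which was ins-39, against 1 of 106.

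No promoter summit was found at the 27 collagen, 33 chemoreceptor, 7 acetylcholine receptor, 6 innexin or 5 vitellogenin genes of X. Autosomal counts were 6 of 129 collagen, 7 of 1155 chemoreceptor (0.606%) and 0 of 17 acetylcholine receptor genes. Those of innexin and vitellogenin genes were 1 of 17 and 0 of 1. The share for all protein-coding genes, 8.6%, would give few or no calls in the X lists, so nothing is read from the X counts.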

How the data were processed

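Both replicates of the 1 group were used. Per the deposited notes, the authors called peaks against a control, made relaxed peak lists for each replicate and for the pool, and derived the reproducible set by IDR. The control was not analysed here. What aligned the reads and called the peaks, in which version, and the IDR cutoff, were not given in the sources used here. The signal is the authors' value per peak and was used only to describe and rank peaks within a list. The deposited −log10 q-value broke ties. The lists hold no read totals, so the depth is unknown and intervals cover counting error only.

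From the ce11 lists, X summits were placed against the Ensembl annotation (release 115, WBcel235) and RefSeq WBcel235 sequence, and all lay within the chromosome lengths. Feature class went to the first of coding exon, 5' UTR, 3' UTR, intron, noncoding gene (every biotype except protein-coding, piRNA included) and intergenic. piRNA genes were left out only where starts of noncoding genes were used. Promoter windows ran from 1000 bp upstream to 250 bp downstream. Peaks overlapped when they shared 1 bp. Replicates were compared over their 2285 strongest peaks. Shares have exact Clopper-Pearson 95% intervals. There was no second condition, so no test over samples was possible and no p-value is given. Motifs were searched on both strands in 200-bp windows.

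Named genes are those whose promoter window holds a summit of the 25 strongest X peaks, or else the nearest protein-coding gene, noncoding starts within 250 bp, the bound members or strongest bound member of each of 14 gene lists, and genes of the X signal and dosage compensation. The genes at other sites of the word were named after their values were seen. The members, lists and motifs were chosen with earlier results of these data known. Alternatives were the ce10 lists, each replicate alone, the stronger part of the peaks, other promoter and motif windows and other annotation rules. Scripts (Python 3.11.15, pandas 2.3.3, scipy 1.17.1) were tested on simulated data.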

Additional observations from a re-analysis of the deposited data

How the results depend on the processing

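Of 60 recomputed values 28 moved by less than the SD of the 2 replicate values (counts of genes or peaks, by less than 1.5 times), and 32 moved more. None changed sign, but apart from the median distance these are shares, counts, spacings or percentiles, which cannot. Without peaks holding GCGCAGGG, X went from 27 to 16 of the 100 strongest, near its 18.4% of all peaks, which still include those taken out. No autosomal peak with the word was among the 100 strongest, so the X count could not rise in this setting. The median percentile went from 48.8 to 53.9 with the stronger part of the peaks. That SD is often smaller than the counting error. With the stronger part of the peaks only, X had 11.5 peaks per Mb, a median spacing of 56828 bp, a median percentile of 53.9, a promoter share of 47.5%, a distal share of 27.9%, a median distance of -206 bp, 108 genes with a promoter summit, the word in 7.84% of peaks and 204 peaks found in both replicates; fewer peaks were taken by construction. The promoter share was 34.3% with the narrow window (500 bp upstream to 100 bp downstream; autosomes 49.4%), 55.2% with the wide one (2000 to 500 bp; autosomes 69.7%) and 70.0% with starts of every biotype except piRNA. The distal share was 33.8%, 20.0% and 17.9% in these settings, and 28.4% without peaks near a tRNA start. Autosomal distal shares were not computed for these settings, so whether X stays above the autosomes there was not tested. Starts of every biotype gave a median distance of -78 bp and 467 genes. With only protein-coding genes taken as genic, 75.2% of X summits were intergenic. GCGCAGGG was in 3.57% of 100-bp and 4.76% of 300-bp windows, and in 17.6% with 1 mismatch allowed (autosomes 10.2%). GCGAAGGG gave 3.10% and GGTTCGA 13.1%, and X held 16 of the 100 strongest peaks without those holding GCGCAGGG; these 3 and the tRNA setting were added after seeing the data.

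From each replicate alone, the ranges were 17.9 to 18.9% for the X share, 23.1 to 24.4 peaks per Mb, 27 to 29 of the 100 strongest, 22823 to 25764 bp for spacing, 47.4 to 48.5 for the percentile, 41.2 to 44.4% for promoters, 58.0 to 63.2% for intergenic, 26.6 to 27.3% for distal, -235 to -207 bp for distance, 181 to 208 genes and 3.94 to 4.15% for the word. No paired analysis was possible because there is 1 group and no test. Depth is unknown, and the control was not analysed here.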
